A study of Mus musculus with 10 samples.

Results

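Cytosolic ribosomal protein genes were examined in pancreatic islets of mice with 1 functional and 1 mutant copy of Men1 and of mice with both copies intact. Members were all probe sets of the expression array whose annotation gives a single symbol of the form Rpl, Rplp or Rps followed by a number and at most the letters a, x, l or y, which leaves out the ribosomal S6 kinases. This rule found 98 probe sets for 45 genes, 24 of the large subunit and 21 of the small subunit, among 45037 probe sets without controls. RefSeq lists 81 protein-coding mouse genes of this form, and those with no probe set of their own are not analysed here. A further 110 probe sets name a ribosomal protein symbol together with other genes and were kept apart.

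The series holds 10 arrays, 1 per mouse, from 5 wildtype females and 5 heterozygous female littermates. All were aged 5 weeks and of a strain labelled C57 on a 129 background, and the labels name no treatment. About 100 islets per mouse gave the RNA, and 100 ng was amplified over 2 cycles. The labels do not describe the structure of the mutant copy. Values are log2 signals per probe set, given for a genotype as mean ± SD (n = 5). A difference is the heterozygous mean less the wildtype mean, in log2 units, and SE stands for its standard error.

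The cytosolic ribosome is built from ribosomal RNA and ribosomal proteins. Most of these proteins are needed in equal numbers, and most of their genes are transcribed together at high rates in all cells. Their mRNAs begin with a run of pyrimidines, the terminal oligopyrimidine (TOP) motif, through which the kinase mTOR controls their translation. In islets, beta cells carry a heavy load of protein synthesis, and some ribosomal protein genes, such as Rplp0 and Rps29, serve as references in expression studies.

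Start sites are shown first, because a pyrimidine run there is a known feature of the family that the choice of members did not use. RefSeq promoters of build GRCm38.p6 were found for 39 of the 45 genes, with 47 annotated starts. Each line below holds 15 bases before the annotated start and 15 bases from it, read 5′ to 3′ on the gene's strand, with capitals marking the unbroken run of C and T that touches the start. The first 6 genes followed the rest of the members closely from mouse to mouse, the next 3 did so weakly or not at all, and the last 3 lack a run of at least 6 in capitals. Of those last 3, Rps27l and Rplp0 also followed the rest closely (r = 0.96 and 0.81), and Rpl13a less so (r = 0.37).
Rps18: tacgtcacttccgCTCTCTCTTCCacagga
Rpl35: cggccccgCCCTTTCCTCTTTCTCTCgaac
Rpl7a: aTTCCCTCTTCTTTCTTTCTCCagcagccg
Rps10: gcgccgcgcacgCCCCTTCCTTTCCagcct
Rpl38: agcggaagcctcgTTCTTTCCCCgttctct
Rplp2: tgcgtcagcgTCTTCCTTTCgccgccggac
Rps6: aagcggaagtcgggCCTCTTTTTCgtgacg
Rps9: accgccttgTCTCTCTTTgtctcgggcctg
Rpl14: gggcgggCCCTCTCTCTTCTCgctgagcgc
Rplp0: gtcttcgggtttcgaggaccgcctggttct
Rpl13a: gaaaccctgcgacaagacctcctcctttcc
Rps27l: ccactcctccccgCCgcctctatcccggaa

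These windows lie at chr17:33955651-33955680 on the minus strand for Rps18, chr2:39005117-39005146 (minus) for Rpl35, chr2:26910792-26910821 (plus) for Rpl7a, and chr17:27635230-27635259 (minus) for Rps10. Those of Rpl38, Rplp2 and Rps6 lie at chr11:114668565-114668594 (plus), chr7:141447636-141447665 (plus) and chr4:86857353-86857382 (minus). Those of Rps9, Rpl14 and Rplp0 lie at chr7:3704026-3704055, chr9:120571502-120571531 and chr5:115559452-115559481, all on the plus strand. The Rpl13a window is chr7:45128731-45128760 (minus), and that of Rps27l, which has another annotated start without a run, is chr9:66946071-66946100 (plus). In Rpl13a a pyrimidine stretch follows a few bases after the annotated start. An annotated start can differ by some bases from the one a cell uses.

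A run of at least 6 pyrimidines touched the annotated start in 14 of 47 member promoters (29.8%) and in 10.4% of the 21263 promoters of all protein-coding genes in the table. Anywhere in the 30-base window such a run was found in 55.3% of member promoters and 28.8% of all. In the bases before the start, searched on both strands, the Ets and GABP core CCGGAAG occurred in 31.9% of member promoters and 8.98% of all, and the YY1 core AAGATGG in 8.51% and 4.13%. The Sp1 GC box GGGCGG occurred in 44.7% and 42.6%, the TATA box TATAAA in 6.38% and 11.6%, and the palindromic core of nuclear respiratory factor 1 in 0 and 1.07%. These are matches of letters and no test was made of them. The 12 measured genes with a run of at least 6 touching a start had a median difference between genotypes of 0.010. The 23 with a shorter run or none had one of -0.011.

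Across the series, array medians ranged from 3.28 to 3.40, and any 2 arrays correlated at r = 0.962 to 0.988. The labelled tissue showed its markers, since all 13 named endocrine genes lay above the filter value, with a median of 13.77 that includes Ins2 and Gcg. Acinar genes stood higher than the endocrine ones (15 of 15 kept, median 16.19). Their mean per mouse was 14.48 to 15.14, beside 12.98 to 13.68 for the endocrine genes. Of 13 named lymphoid genes 8 were kept, all with a higher heterozygous mean, and Cd3e, Cd3d, Cd3g, Cd2 and Cd79b, among them the defining T cell genes, were not kept. The mean of the 8 was 7.43 in heterozygous replicate 2 and 6.91 in heterozygous replicate 5, and 5.05 to 5.91 in the other mice. All 13 stromal genes had a lower heterozygous mean, with a median difference of -0.78. Of all genes kept, 54.4% had a higher heterozygous mean. The stromal mean was 10.3 in heterozygous replicate 4, within the wildtype range of 9.6 to 10.4, and 8.6 to 9.3 in the other heterozygous mice. Both named red blood cell genes, Hba-a1 and Alas2, were not kept either. The targeted gene, Men1, averaged 6.89 ± 0.39 in the wildtype group and 6.42 ± 0.30 in the heterozygous group, with overlapping values (difference -0.47, SE 0.20, limma adjusted p = 1).

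Of the 98 member probe sets, 83 exceeded log2 4, taken as the edge of background, in 5 or more of the 10 mice and are called kept, and they represent 41 genes, 22 of the large and 19 of the small subunit. The 4 genes without such a probe set were Rpl3l, a striated muscle copy of Rpl3 (2.82 over all mice), Rpl39l, a copy of Rpl39 used mainly in testis (2.49), and the small subunit genes Rps16 (2.06) and Rps27 (3.08). Rps16 and Rps27 each had only 1 probe set with a symbol of its own. Whether these low values come from the probe sets or from the transcripts was not tested. The paralogue Rps27l, which responds to p53, was measured at 11.62.

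Most members gave a strong signal. Their median over genes was 13.59, against 7.56 for all 10538 genes kept, and 31 of the 41 lay above 12. Highest were Rps29, a small zinc-binding protein of the small subunit (16.23), Rpl13a, which also takes part in silencing of inflammatory mRNAs (15.47), Rps28 (15.41), Rpl41, one of the shortest known proteins (15.12), and Rps20 (14.95). Lowest were Rpl12, a protein at the base of the stalk that binds elongation factors (4.82), Rpl39, which lines the exit tunnel (7.23), Rpl14 (7.50), Rps25 (8.05) and Rpl37 (8.56). A probe set's signal depends on its probes as well as on the transcript, so this is an order of signals and not of mRNA abundance. A gap without any member ran from Rps6 at 9.01 to Rps19 at 11.55.

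**Figure D1:**
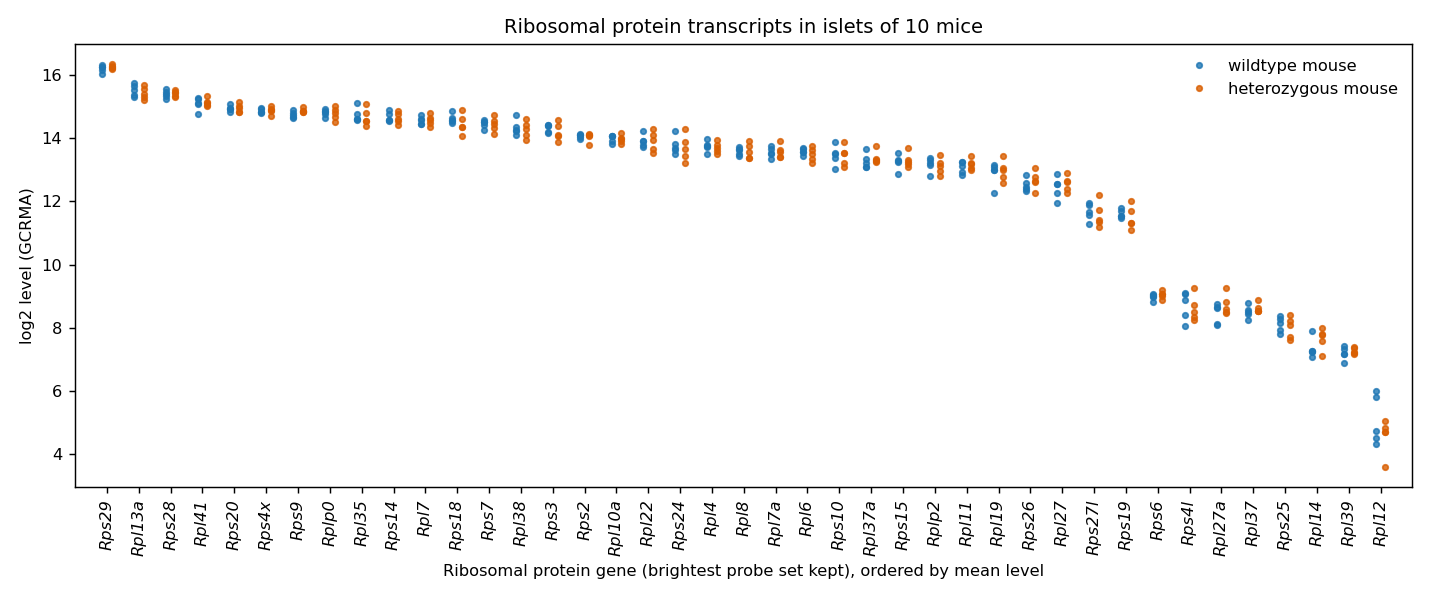
Log2 level (y axis) of the brightest kept probe set of each of 41 ribosomal protein genes (x axis, ordered by mean) in 5 wildtype (blue) and 5 heterozygous (orange) mice, 1 point per mouse. The points of both genotypes overlap for every gene, 33 genes lie above 11 and 8 below 10.

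The comparison of heterozygous with wildtype islets asked whether 1 lost copy of Men1 goes with other levels of ribosomal protein transcripts in young mice. The genotype means of the family lay close together. The mean over the 41 genes was 12.76 ± 0.12 in wildtype and 12.76 ± 0.17 in heterozygous islets, a difference of -0.0024. In wildtype mice 1 to 5 it was 12.67, 12.79, 12.90, 12.84 and 12.61, and in heterozygous mice 12.82, 13.03, 12.68, 12.59 and 12.67. Both the highest and the lowest mouse were heterozygous, and the groups overlapped over the whole wildtype range. In whole islets, fewer cells of a type and less RNA per cell cannot be told apart.

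Over single genes, 20 of 41 had a higher and 21 a lower heterozygous mean, and 54.4% of all genes kept had a higher one. Their median difference was -0.010, beside 0.014 for all genes kept, and the median size of a difference was 0.072, beside 0.096. For 29 of the 41 (70.7%) the difference was smaller than 0.1, which holds for 51.4% of all genes kept. With limma, an adjusted p under 0.05 was reached by 0 of the 83 member probe sets and by 0% of all 18567. An unadjusted p under 0.05 was reached by 0 of the 83 and by 4.09% of all (2.57% higher and 1.52% lower in heterozygous islets). Groups without overlap occurred in 0 of the 83 and in 0.700% of all (0.528% higher and 0.172% lower). The lowest unadjusted p among members was 0.108, for a dim Rps4x probe set, and its adjusted p was 1. The 95% interval reached 0.27 to either side of the difference in the median member, or 1.21-fold, with 5 mice per genotype.

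The balance of higher and lower members rested on single mice. Without heterozygous replicate 2, 11 of 41 genes had a higher heterozygous mean (26.8%), and without heterozygous replicate 4 there were 32 (78.0%). With replicates 2 and 5 left out, the mice with high lymphoid markers, there were 13 (31.7%). There were 32 (78.0%) also when the fit took account of the 3′ minus 5′ signal difference of the Actb and Gapdh control probe sets, a measure of RNA integrity and amplification. The share over all genes kept, 54.4% with all mice, is not given for these fits and may move with them.

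Among large subunit genes, 12 of 22 had a higher heterozygous mean, with a median difference of 0.0094. Rpl14, a protein of the outer face of the subunit, stood at 7.25, 7.89, 7.07, 7.26 and 7.26 in wildtype mice and 7.57, 7.76, 7.80, 7.997 and 7.10 in heterozygous mice. Heterozygous replicates 1 to 4 exceeded every wildtype mouse other than replicate 2, and heterozygous replicate 5 lay near the bottom. The difference was 0.30 (SE 0.19, limma adjusted p = 1). Rpl27a, close to the peptidyl transferase centre, had 8.09, 8.66, 8.11, 8.76 and 8.62 in wildtype mice and 8.58, 9.27, 8.82, 8.48 and 8.49 in heterozygous mice. Its heterozygous replicates 2 and 3 were the highest of all 10 mice, and the other heterozygous mice lay within the wildtype range (difference 0.28, SE 0.19, limma adjusted p = 1), and without replicate 2 the difference was 0.14. Rpl37 differed by 0.11 (SE 0.11), and Rpl11, which binds and inhibits Mdm2 when ribosome assembly fails, by 0.094 (SE 0.12). With single mice left out these ranged from 0.049 (without heterozygous replicate 2) to 0.18 (without wildtype replicate 3) for Rpl37, and from 0.026 (without heterozygous replicate 2) to 0.14 (without heterozygous replicate 5) for Rpl11.

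Rpl12 had the widest difference among members, at -0.50 (SE 0.37, limma adjusted p = 1). It was read at 4.50, 4.33, 5.82, 5.99 and 4.72 in wildtype mice and at 5.04, 4.83, 3.59, 4.71 and 4.69 in heterozygous mice. Wildtype replicates 3 and 4 stood above all others, heterozygous replicate 3 lay below the filter value, and the remaining 7 mice were intermixed. The difference was -0.26 without heterozygous replicate 3, -0.31 and -0.27 without wildtype replicates 3 and 4, and -0.69 without wildtype replicate 2. Rpl6, a large subunit protein near the outer surface, differed by -0.096 (SE 0.11), and Rpl13a by -0.086 (SE 0.12). Leaving out single mice moved Rpl6 from -0.16 (without heterozygous replicate 2) to -0.027 (without replicate 5), and Rpl13a from -0.15 (without heterozygous replicate 2) to -0.029 (without replicate 3). Rplp0, the stalk protein used as a reference in quantitative PCR, stood at 14.80 ± 0.11 and 14.78 ± 0.19, with a 95% interval of the difference from -0.26 to 0.22.

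Among small subunit genes, 8 of 19 had a higher heterozygous mean, with a median difference of -0.014. Rps9, a protein of the subunit's body that takes part in decoding accuracy, was read at 14.79, 14.68, 14.72, 14.66 and 14.89 in wildtype and 14.995, 14.85, 14.84, 14.82 and 14.88 in heterozygous mice. Wildtype replicate 5 alone lay among the heterozygous values, and the other 4 wildtype mice were below all of them. The difference was 0.13 (SE 0.082, limma adjusted p = 1). Another kept Rps9 probe set gave 0.0081 (SE 0.18), with wildtype mice from 11.1 to 11.6 and heterozygous mice from 10.9 to 11.9. Rps26, at the mRNA exit channel, differed by 0.16 (SE 0.15), by 0.061 without heterozygous replicate 2 and by 0.26 without heterozygous replicate 5.

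Rps18, a protein of the subunit's head, was read at 14.55, 14.59, 14.86, 14.64 and 14.47 in wildtype and 14.62, 14.89, 14.34, 14.06 and 14.36 in heterozygous mice. Heterozygous replicates 3, 4 and 5 lay below every wildtype mouse and replicate 2 above every one, and the difference was -0.17 (SE 0.15, limma adjusted p = 1). Rps3, a protein of the mRNA entry channel, differed by -0.12 (SE 0.14), and Rps19, whose human gene is mutated in Diamond-Blackfan anaemia, by -0.13 (SE 0.16). Without heterozygous replicate 4 the differences of Rps18, Rps3 and Rps19 were -0.069, -0.035 and -0.027, and without heterozygous replicate 2 they were -0.28, -0.21 and -0.25. Rps6, the target of the S6 kinases, stood at 8.98 ± 0.098 and 9.04 ± 0.11. Narrow intervals around 0 were found for Rps28 (difference 0.0030, 95% interval -0.19 to 0.20) and the X-linked Rps4x (0.0087, -0.19 to 0.20).

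**Figure D2:**
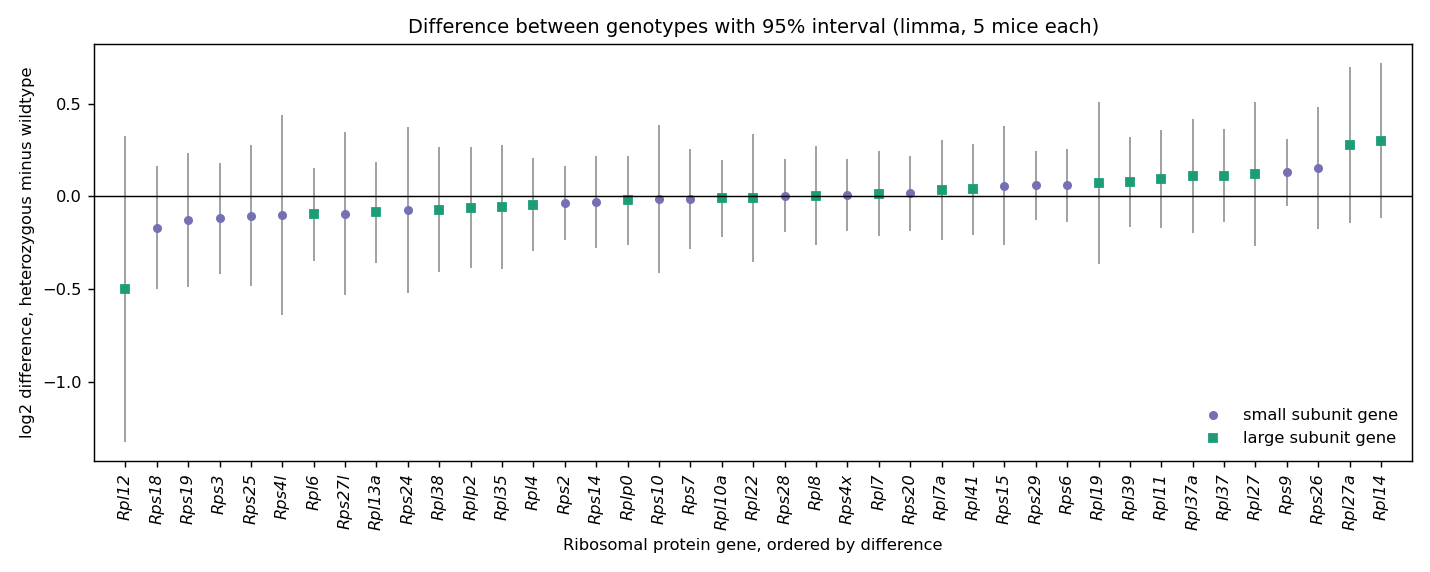
Log2 difference between genotypes, heterozygous minus wildtype (y axis), for 41 ribosomal protein genes (x axis, ordered by difference), with limma's 95% interval as bars and 5 mice per genotype. Every interval crosses 0, and the widest belongs to Rpl12 at -0.50.

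As a reference set, the members varied somewhat less from mouse to mouse than genes in general and about as much as other genes of similar signal. The SD between mice within genotype had a median of 0.19 over the 41 genes and 0.24 over all genes kept, and 24 of the 41 lay below the latter. Among the 215 other genes in the members' middle range of levels, from 12.50 to 14.57, the median was 0.22, and 22 of the 41 members lay below it. By level, the 16 members above 14 had a median SD of 0.16 against 0.17 for 73 other genes, and the 12 from 13 to 14 had 0.20 against 0.23 for 100 others. The 5 members from 10 to 13 had 0.30 against 0.22 for 1293 others, and the 8 under 10 had 0.31 against 0.25 for 9031 others. The members' lower spread over the whole table coincided with their high signals. The highest value of the series was 17.58.

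By brightest probe set, the most even members were Rps9 (SD 0.083), Rps29 (0.090), Rps4x (0.10), Rps28 (0.11) and Rps6 (0.11), all of the small subunit. The least even were Rpl12 (0.68), Rps4l, a copy of Rps4x (0.43), Rps24 (0.35), Rps27l (0.34) and Rpl19 (0.34). A dimmer kept probe set of the large subunit gene Rpl7 (9.94) had an SD of 0.055. Rps4l was read at 9.11, 8.41, 9.07, 8.88 and 8.05 in wildtype and 8.49, 8.32, 8.24, 8.70 and 9.25 in heterozygous mice. It was thus both high and low within each genotype, over a range of more than a log2 unit.

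Of 12 common reference genes kept, the median SD was 0.24. Gusb, a lysosomal enzyme gene (SD 0.059), and the elongation factor gene Eef1a1 (0.062) were more even than the brightest probe set of any member. Sdha, of the mitochondrial respiratory chain, stood at 0.10. Actb (0.28), Hprt (0.33) and B2m (0.42) were less even than most members, and Rplp0 stood at 0.16. The reference gene with the smallest p was Tubb5, at -0.33 (SE 0.15), followed by Pgk1 at 0.15 (SE 0.11) and Eef1a1 at -0.099 (SE 0.077). The 74 mitochondrial ribosomal protein genes, whose signals were lower (median 8.30), had a median SD of 0.19, the same as the cytosolic ones to this precision.

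**Figure D3:**
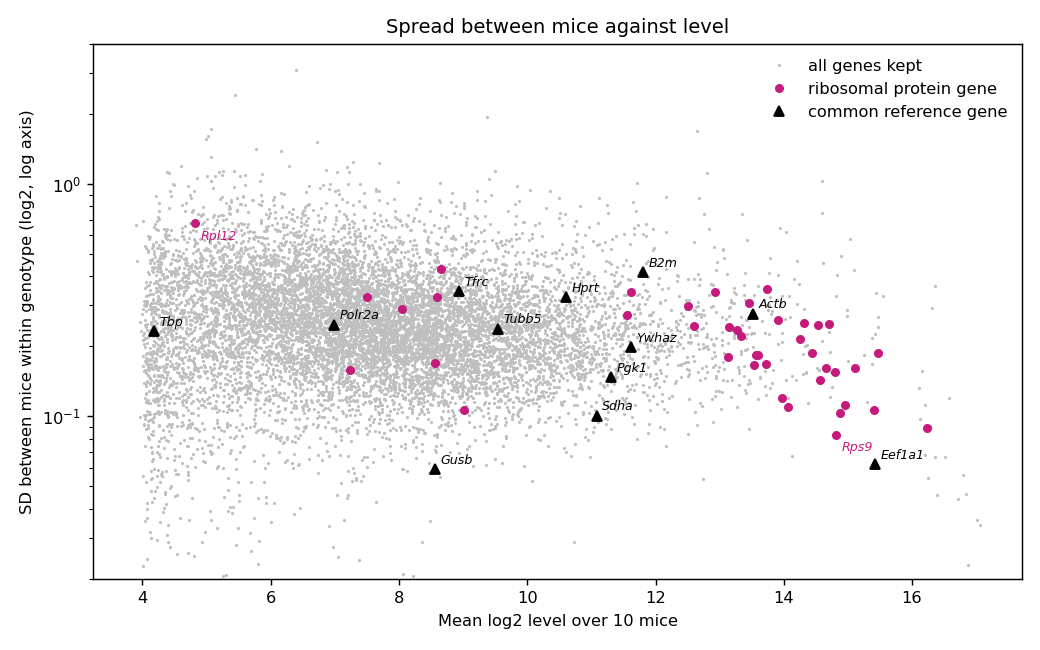
SD between mice within genotype (y axis, log scale) against mean log2 level over 10 mice (x axis), for all 10538 genes kept (grey), 41 ribosomal protein genes (magenta) and common reference genes (black triangles). Most members sit at the bright right side among genes of similar spread, Rps9 is the lowest member at 0.083 and Rpl12 the highest at 0.68.

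The remaining spread was shared among members. After the genotype means were removed, the mean correlation between pairs of the 41 genes over the 10 mice was 0.41, beside 0.045 for pairs of all genes kept and 0.12 for other genes in the members' middle range of levels. It was 0.69 among the 17 members from 10 to 14, 0.34 among the 16 above 14 and 0.043 among the 8 at or under 10. Large subunit genes reached 0.50 and small subunit genes 0.32. Mitochondrial ribosomal protein genes stood at 0.21, translation factors and other TOP mRNAs at 0.25, ribosome biogenesis factors at 0.23 and common reference genes at 0.10. The pairs share the same 10 arrays, and probe sets of similar genes can bind each other's transcripts, so these values are descriptions.

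Heterozygous replicate 2 carried much of this pattern. In that mouse 39 of 41 members lay above their own mean, where 44.4% of all genes kept did, and 27 members had their highest value there, where 9.04% of all genes did. Heterozygous replicate 4 had 8 of 41 above their mean and wildtype replicate 5 had 10, and these mice held the lowest value for 12 and 13 members. Without heterozygous replicate 2 the mean pairwise correlation was 0.27, and without any other single mouse it was between 0.40 and 0.44. The SD was larger in heterozygous than in wildtype mice for 28 of 41 members (68.3%; 53.2% of all genes kept), and without heterozygous replicate 2 for 16 of 41 (39%; 51.7% of all).

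Heterozygous replicate 2 also had the highest lymphoid mean (7.43), but heterozygous replicate 5, with the next highest (6.91), had a family mean of 12.67, below the wildtype mean. The 3′ minus 5′ difference was 3.59 in heterozygous replicate 4, 3.56 in heterozygous replicate 3 and 3.37 in wildtype replicate 5, the highest values of all mice, with family means of 12.59, 12.68 and 12.61. The pairing of high values with low family means was partial. Wildtype replicate 1 (3.28) and heterozygous replicate 5 (3.26) had family means of 12.67, and heterozygous replicate 2, with the next highest value of 3.32, had the highest family mean. The part of either measure in the family's shared movement was not tested.

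Single genes differed in how far they followed the rest. With the summed standardised values of the other 40 members, 26 genes correlated above 0.7 and 29 above 0.5, and 2 were below 0. The closest were Rps27l (r = 0.96), Rps18 (0.93), Rps19 (0.93), Rpl7a (0.89) and Rpl35 (0.89). The weakest were Rps29 (0.073), Rpl14 (0.061), Rps4l (-0.17) and Rps9 (-0.27). Rps27l was read at 11.57, 11.66, 11.88, 11.93 and 11.29 in wildtype and 11.73, 12.22, 11.40, 11.18 and 11.34 in heterozygous mice. Its heterozygous replicate 2 was the highest and replicate 4 the lowest of all mice, as for the family mean, and its SD of 0.34 compares with 0.15 for that mean. The even members Rps9 and Rps29 did not follow the family mean with their brightest probe sets. The other kept Rps9 probe set (11.32) had an SD of 0.32, with heterozygous replicate 2 highest (11.88) and replicate 4 lowest (10.86). Among genes with a run of at least 6 pyrimidines touching a start, the median of this correlation was 0.85. It was 0.77 among those with a shorter run or none.

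**Figure D4:**
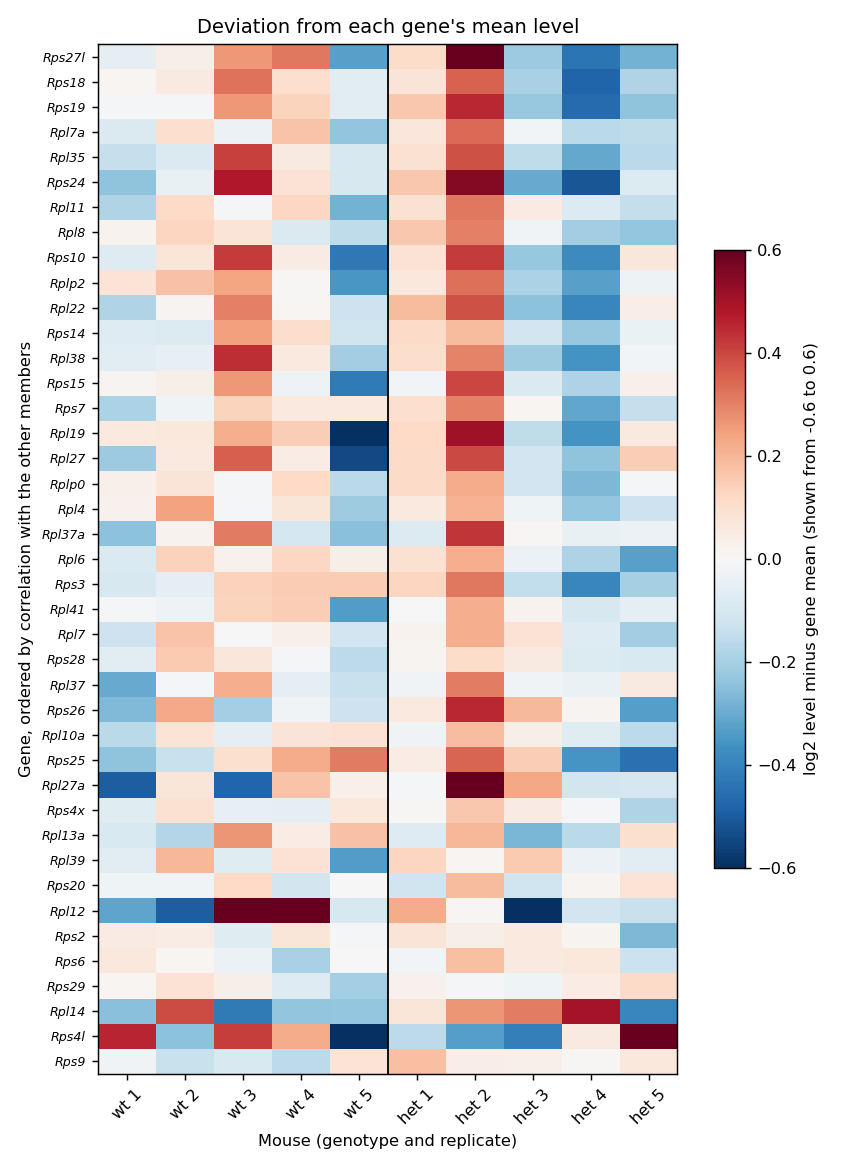
Log2 level of each of 41 ribosomal protein genes (1 line each) minus that gene's mean over 10 mice (columns, 5 wildtype left of the line and 5 heterozygous right of it), from blue (lower) through white to red (higher). Heterozygous replicate 2 is red for 39 genes, while heterozygous replicate 4 and wildtype replicate 5 are blue for most lines in the upper part.

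Probe sets of one gene often disagreed in signal. Of 20 genes with 2 or more kept probe sets, 14 had kept probe sets at least 2 log2 units apart, and in 8 the kept probe sets differed in sign between genotypes. The widest were Rps20 (14.95 and 4.96), Rps4x (14.87 and 5.08), Rps3 (14.26 and 6.10), Rpl41 (15.12 and 7.03) and Rpl37a (13.34 and 6.39). For Rps4x the bright probe set, of the _a_at kind, gave 0.0087 (SE 0.089) and the dim one, of the _x_at kind, 0.24 (SE 0.14). Rps3 gave -0.12 (SE 0.14) with its bright and 0.057 (SE 0.12) with its dim probe set.

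The identifier's suffix tells how specific a probe set was designed to be, and _x_at marks probes that may bind other transcripts. Of kept member probe sets, 47.0% carried _x_at, against 7.73% of all kept probe sets, and 18.1% had the plain _at form, against 69.8%. Plain probe sets of members were dimmer (median 8.59 in 15 kept) than _x_at (13.77 in 39) and _a_at ones (13.36 in 26), and more variable (median SD 0.31, 0.19 and 0.23). Since the genome holds many processed copies of ribosomal protein genes, the signal of one gene and its near-identical copies cannot be told apart here. The 93 kept probe sets that name several genes had a median signal of 13.69, a median difference of 0.0048 and a median SD of 0.20. Of these, 48 were higher and 45 lower in heterozygous islets, and 0 passed limma's adjusted p of 0.05. An unadjusted p under 0.05 was reached by 0 of the 93 (4.09% of all), and the groups did not overlap in 1 (0.700% of all).

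**Figure D5:**
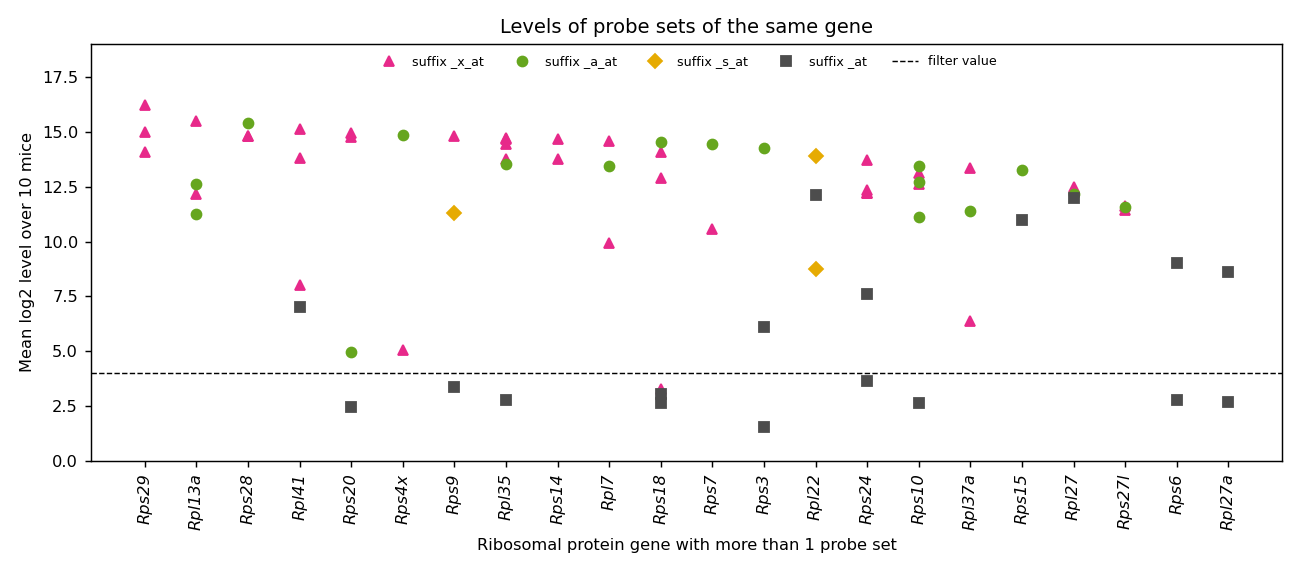
Mean log2 level over 10 mice (y axis) of every probe set of the ribosomal protein genes with more than 1 (x axis), by identifier suffix, with the filter value of 4 as a dashed line. Probe sets of one gene span up to 12.7 log2 units, and most squares, the plain _at probe sets, lie low.

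Genes that make, regulate or work with ribosomes were read from lists, and 0 members of any list passed limma's adjusted p of 0.05, as in 0% of all probe sets. The counts of higher and lower genes per list are read beside the 54.4% of all genes kept with a higher heterozygous mean. Of 5 ribosomal proteins whose symbols fall outside the rule, 2 were higher and 3 lower. Rpl7l1, a copy of Rpl7, stood at -0.20 (SE 0.15), Rps3a1 at -0.11 (SE 0.10) and Fau, made as a fusion with a ubiquitin-like protein, at 0.030 (SE 0.23), and 0 of the 5 had an unadjusted p under 0.05. Of 17 translation factors and other TOP mRNAs 12 were higher, with a median of 0.046, and 0 had an unadjusted p under 0.05. The smallest p belonged to Btf3, a subunit of the nascent polypeptide complex, at 12.29 ± 0.19 against 12.04 ± 0.17 (0.25, SE 0.12), and Eef1d, of the elongation factor exchange complex, followed (0.18, SE 0.13).

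Among 30 ribosome biogenesis factors 11 were higher and 19 lower (median -0.069), and 2 had an unadjusted p under 0.05, where 4.09% of all kept probe sets did. These were Nolc1, a nucleolar chaperone, at 6.86 ± 0.26 against 7.24 ± 0.19 (-0.39, SE 0.14, limma adjusted p = 1), and Rrp9, a small nucleolar particle protein (-0.24, SE 0.11). Gar1, of the pseudouridylation particles, stood at -0.26 (SE 0.12). Of 14 genes of the RNA polymerase I machinery, which transcribes ribosomal RNA, 6 were higher and 8 lower, and 1 had an unadjusted p under 0.05 (4.09% of all). Its subunit gene Polr1b stood at -0.37 (SE 0.16), and the initiation factor genes Taf1b and Rrn3 at 0.36 (SE 0.17) and 0.25 (SE 0.16).

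Among 12 genes of the mTOR and Myc axis 6 were higher and 6 lower, with 0 at an unadjusted p under 0.05. The translation repressor gene Eif4ebp2 stood at 0.15 (SE 0.098), Myc, a transcription factor that drives ribosome production, at 0.44 (SE 0.30), and the mTOR inhibitor gene Tsc2 at 0.22 (SE 0.17). Of 8 factors that bind ribosomal protein promoters 6 were higher, with Elf1 at 0.31 (SE 0.17), Zbtb7a at 0.33 (SE 0.19) and Sp1 at 0.12 (SE 0.10), and 0 had an unadjusted p under 0.05. Of 8 genes around Mdm2 and p53, 3 were higher and 5 lower, and 2 had an unadjusted p under 0.05 (4.09% of all). These were the nucleolar GTPase gene Gnl3 (-0.33, SE 0.12) and the stress sensor gene Sesn2 (0.37, SE 0.14), while the p53 target Cdkn1a stood at -0.11 (SE 0.12). Of 74 mitochondrial ribosomal protein genes 48 were higher and 26 lower, where 54.4% of all genes kept were higher. Their median was 0.032, beside 0.014 for all genes kept, and 1 had an unadjusted p under 0.05, a smaller share than the 4.09% of all. That was Mrps24 (0.32, SE 0.14), followed by Mrps27 (0.23, SE 0.12) and Mrpl28 (0.14, SE 0.083).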

How the data were processed

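Expression was measured in islets of 5 wildtype and 5 heterozygous mice, 1 short-oligonucleotide array each, after 2-cycle amplification. The submitters' processing notes name GCRMA (version not given) for the deposited log2 values; this method adjusts background by probe sequence and normalizes arrays to one another. The log2 scale was read from the values. Groups came from the labels.

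Names came from GEO's platform annotation, and probe sets with several symbols were not named. All 45 member genes matched RefSeq by identifier. Probe sets above log2 4 on at least 5 of 10 arrays were kept (18567), and a gene was represented by its brightest one. Differences were fitted with limma 3.58.1 (lmFit, eBayes; R 4.3.3), two-sided, with Benjamini-Hochberg adjustment over all probe sets kept, and the code was tested on simulated data. The within-genotype SD pools both groups. The number of arrays limits the precision.

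Named were the 6 member genes of smallest p per direction, the 5 extremes of level and SD each way, paralogues, the 5 genes with the widest probe sets, Men1, and 3 genes per list by p. Other members were named after their values were seen. Members and lists were chosen with earlier results of these data known. Alternatives covered filters, scaling, variance priors, array weights, a block on the replicate number, covariates, probe set choice, the threshold and left-out arrays. Figures used matplotlib 3.10.9.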

Additional observations from a re-analysis of the deposited data

Results flagged for a closer look

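In 5 of 54 groups of 5 mice examined, 1 mouse stood apart from the other 4 by Dixon's test. Independent groups would give 1 in 20 by chance, or 2.7 groups. That number is no measure here, since the genes share the same mice and members moved together. The flagged genes are also among those named for their p, level, spread or probe sets in these same values. Heterozygous replicate 2 was high for Rpl37 (8.87, with the others from 8.52 to 8.61) and for Rpl37a (13.76, with the others from 13.25 to 13.34). Wildtype replicate 2 was high for Rpl14, at 7.89 against 7.07 to 7.26. Wildtype replicate 5 was low for Rpl19, at 12.26 against 12.99 to 13.15. Heterozygous replicate 3 was low for Rpl12, at 3.59 against 4.69 to 5.04, which is under the filter value of 4.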

How the results depend on the processing

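The count of member probe sets past limma's adjusted threshold was 0 under each of 24 alternatives, the threshold of 0.10 and the replicate block included. The count at an unadjusted p under 0.05, 0 as reported, was 1 without the filter on dim probe sets (1.02%; 2.44% of all probe sets), 1 with array weights (1.2%; 5.59%), 1 with the lymphoid mean as a covariate (1.2%; 3.48%), 2 without heterozygous replicates 2 and 5 (2.41%; 3.72%) and 4 with adjustment for acinar genes (4.82%; 6.82%). It was 0 to 1 when single mice were left out (3.22% to 5.13% of all). Groups without overlap numbered 1 without heterozygous replicates 2 and 5 (2.31% of all), 1 with the probe sets naming several genes (0.700% of all), an alternative chosen after seeing the data, and 0 to 1 without single mice (1.07% to 2.02% of all). The share of member genes higher in heterozygous islets, 48.8%, was 78.0% with the 3′ minus 5′ covariate, 31.7% without heterozygous replicates 2 and 5, and 26.8% to 78.0% without single mice. The share over all genes kept is not given for these settings. The median difference stayed between -0.068 and 0.074. The median SD, 0.19, was 0.31 with plain _at probe sets, of which 15 were kept. With the replicate block, a pairing that same-numbered mice did not show (correlation of their deviations -0.28 to 0.11), the median difference was -0.010 and the lowest adjusted p of a member 1. Of the 12 differences with the smallest p, 265 of 267 values under alternatives kept direction and side of the threshold; Rps19 was 0.023 with the 3′ minus 5′ covariate, and Rps3 0.057 with its plain probe set. The cause was not tested. The side of the threshold could hardly change, since limma's lowest adjusted p over all kept probe sets was 0.720 in the main fit. Sizes moved more: all but Rpl14 and Rps9 of these 12 moved by over 1.5 times without at least 1 single mouse. The precision is that of 5 mice per genotype with 1 array each.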
